A study of Bos taurus with 12 samples.

Results

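Macrophage genes were followed in endometrial biopsies of 12 cows, each measured on its own custom bovine array in 1 colour. The genes named were 10: CSF1R, TYROBP, FCGR3A, CD14, CD68, AIF1, CD163, MARCO, MRC1 and LYVE1. By their symbols, 9 of the 10 were found among the 26323 transcripts of the array, in 10 transcripts that carried 22 probes with 20 different sequences. MRC1, the mannose receptor, was not analysed here. The rule that gathers their probes reads symbols only. LYVE1 was among the transcripts that the study listed from these same arrays, so its difference between old and young females below is not independent evidence.

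All biopsies were taken on Day 15 of a synchronised estrous cycle. The 4 old females (OF, 13 to 14 years, nulliparous) and the 4 young females (YF, 4 to 5 years, primiparous, more than a year after calving) were Holstein somatic clones of a single donor cow, so age and parity cannot be told apart and the replicates are animals with the same nuclear genome. The other 4 animals were labelled only as contemporary cows. Of these, 3 formed the Contemporary group and cow 1111, which the labels set aside for a divergent phenotype, is given separately. The biopsies were of intercaruncular endometrium, a mixed tissue, in which fewer cells of a type and less RNA per cell cannot be told apart.

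Macrophages of the uterine lining take up debris and microbes and secrete factors that act on the epithelium and vessels. Their survival depends on signalling through CSF1R, and their surface carries receptors for antibody, for bacterial lipopolysaccharide and for modified lipoproteins. Other surface receptors, TREM2 among them, pass their signal through small adaptor proteins such as TYROBP. LYVE1, a hyaluronan receptor, marks a subset of tissue macrophages and is also a classical marker of lymphatic endothelium. CD14, CD68 and FCGR3A are likewise not exclusive to macrophages, being found in monocytes and, in part, in other leukocytes.

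Each value is a level, the log2 processed signal minus the 75th percentile of its array, so 0 is the brightness of the 75th percentile and 1 unit is a doubling. A probe was read as present where the scanner software called it well above background. On each array 71.6% to 74.9% of the spots were, and none was saturated. The arrays lay on 2 slides, which were also scanned separately. Slide 1 held YF 1070 and 1072, OF 0245 and cow 1111, and slide 2 held the remaining 8. OF 2258 and OF 0234 stood apart from the other cows in smooth muscle genes, so results that rest on them are given with and without them.

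Each gene was read by short oligonucleotides, and these decide what is measured. The polyadenylation hexamers AATAAA and ATTAAA, searched on the probe strand only, were held by 9 of the 20 sequences, in 6 of the 9 genes, against 10.9% of the 50922 different probe sequences of the array. Those of CD68, and likewise those of CSF1R, overlap within the gene, as given below, and are not separate sites. A match describes the letters only. Below are 30-base stretches, written 5′ to 3′ with a hexamer in capitals, of the probes that the results turn on: LYVE1 (the gene with the widest range), AIF1 (whose probes varied apart), CD14 (whose groups did not overlap in 1 comparison), CSF1R (whose probes overlap), and MARCO and CD163 (which were near background).
LYVE1 probe A: gagacctaatctctgtaaagccaaAATAAA
LYVE1 probe B: ttttaccacctggcatgttcttctgagcca
AIF1 probe A: cagactaacttaAATAAAttatcctccttc
AIF1 probe B: gagaggagagctggcagacagagaaggcac
CD14 probe A: catggctgtatgtcagtacccacAATAAAc
CSF1R probe A: gtccctgtcagcATTAAActaaccccatta
CSF1R probe D: actgatttggtgattgaagttcccaagagc
MARCO probe A: tgaagcaggttcAATAAAgctAATAAAgct
CD163 probe A: ataaggaggatgcaggagttatctgctcag

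On the UMD3.1 build named by the array files, LYVE1 lay at chr15:42678184-42692464, AIF1 at chr23:27503183-27505457, CD14 at chr7:53446106-53448979 and CD68 at chr19:27921927-27923997. CSF1R lay at chr7:63379475-63410968, TYROBP at chr18:46779848-46782546 and FCGR3A at chr3:7996519-8005228. CD163 lay at chr5:102245937-102278444 and MARCO at chr2:71099131-71134074. None of the 20 sequences was also assigned to another gene on the array. FCGR3A belongs to a family of related receptor genes, so some cross-hybridisation to a relative cannot be told apart from its own signal.

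The 2 CD68 probes were the same sequence moved by 1 base (59 bases shared), and 3 of the 4 CSF1R probes overlapped by 52 to 57 bases. Such probes are repeats of 1 measurement and not separate readings. Over the 12 arrays the 2 probes of a gene rose and fell together for TYROBP (Pearson r = 0.96), LYVE1 (r = 0.98) and FCGR3A (r = 0.84), and less so for CD14 (r = 0.29) and AIF1 (r = 0.11).

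The 7 genes CSF1R, TYROBP, FCGR3A, CD14, CD68, AIF1 and LYVE1 were well above background on all 12 arrays. The scavenger receptors CD163 and MARCO were not. CD163 was well above background only on the array of Contemporary cow 1128, and MARCO only on that of OF 0245. With 1 array each above background, no fold is given between groups. These 2 genes did not pass the filter on dim probes and were not tested.

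**Figure D1:**
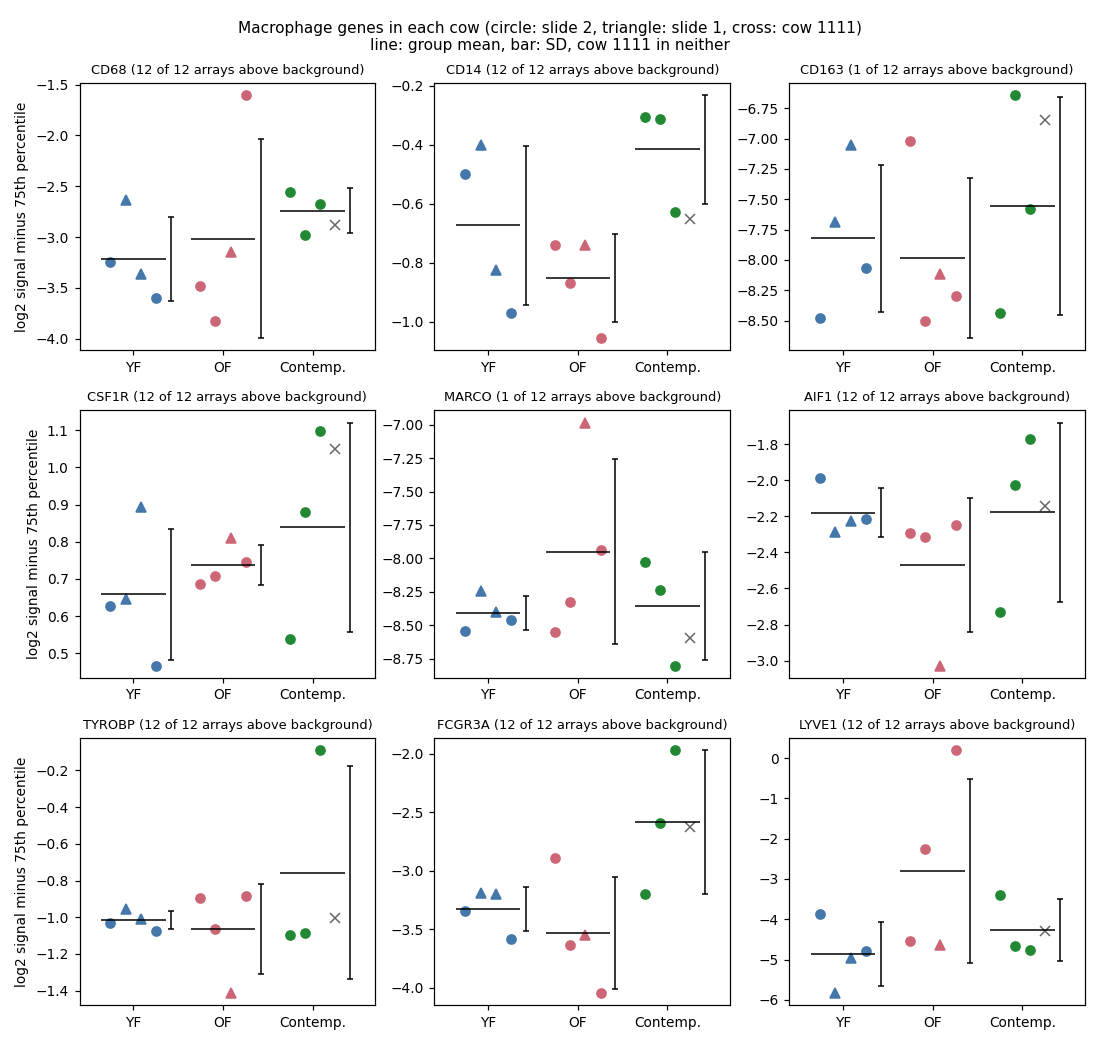
Level of each macrophage gene (vertical axes, log2 signal minus the 75th percentile of the array) in each cow, by group. Circles are slide 2, triangles slide 1, the cross is cow 1111, horizontal lines are group means and bars are SD. LYVE1 of OF 2258 and OF 0234 sits at 0.20 and -2.26, above all the other cows.

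The first question was whether the macrophage genes differed between the endometrium of old and young females. No macrophage gene passed the test across all transcripts, and the genes split almost evenly in direction. Of the 7 genes tested, 3 were higher and 4 lower in OF, and 0 passed an adjusted p of 0.05 (limma, Benjamini-Hochberg over 19755 transcripts). In the whole comparison 0% of transcripts passed, and 478 transcripts but none of the 7 genes reached an unadjusted p of 0.05. The median OF minus YF difference of the 7 genes was -0.05 on the log2 scale, beside 0.01 over all transcripts tested. The smallest adjusted p over all transcripts was 0.667, and each of the 7 genes had an adjusted p of 0.999. The OF and YF groups did not overlap in 0 of the 7 genes, against 1.53% of all transcripts tested.

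CSF1R, the receptor for the growth factor that macrophages live on, varied least. Its level was 0.63, 0.65, 0.89 and 0.47 in YF 1069, 1070, 1072 and 1127. In OF 0233, 0234, 0245 and 2258 it was 0.69, 0.71, 0.81 and 0.75. The 4 OF values fell inside the range of the YF values. The difference was 0.08 with a 95% confidence interval of -0.23 to 0.39. The second CSF1R transcript gave a difference of 0.03.

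TYROBP, the ITAM adaptor that carries the signal of TREM2 and related receptors, was narrow in YF. Its 4 YF values were -1.03, -0.96, -1.01 and -1.07. The OF values, in the same order of animals as above, were -0.89, -1.06, -1.41 and -0.88. OF values lay on both sides of the YF range, with OF 0245 lowest, and the difference was -0.05 (95% confidence interval -0.40 to 0.30).

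FCGR3A, a low-affinity receptor for IgG, was at -3.34, -3.19, -3.19 and -3.58 in YF and at -2.89, -3.63, -3.55 and -4.04 in OF. The OF animals spread wider than the YF animals, above and below them. The difference was -0.20 (95% confidence interval -0.76 to 0.35).

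CD14, the co-receptor that hands lipopolysaccharide to TLR4, was at -0.50, -0.40, -0.83 and -0.97 in YF and at -0.74, -0.87, -0.74 and -1.06 in OF. The highest 2 of the 8 values were YF animals, but the groups overlapped, and the difference was -0.18 (95% confidence interval -0.57 to 0.21).

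CD68, a lysosomal membrane glycoprotein of phagocytes, was at -3.24, -2.64, -3.37 and -3.61 in YF. In OF it was at -3.48, -3.83, -3.15 and -1.60. OF 2258 was the highest of all cows, and the other OF animals lay near or below the YF animals. The difference of 0.20 (95% confidence interval -0.86 to 1.26) turned to -0.27 without OF 2258.

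AIF1, an actin-binding protein of activated macrophages, was at -1.99, -2.29, -2.23 and -2.22 in YF and at -2.29, -2.32, -3.03 and -2.25 in OF. OF 0234, 0245 and 0233 lay below all YF animals, 0233 only narrowly. The difference was -0.29 (95% confidence interval -0.75 to 0.16), with an exact two-sided permutation p of 0.0571, where 4 animals against 4 cannot go below 0.0286. Without OF 0245 the difference was -0.11. The 2 probes differed in how much they moved. Probe A gave a difference of -0.09 and ranged from -0.22 to 0.23 over the 12 arrays. Probe B gave -0.49 and ranged from -5.84 to -3.77. The low AIF1 value of OF 0245 came mostly from probe B, at -5.84. Its probe A, at -0.22, was also the lowest of the 12 arrays, though only narrowly.

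**Figure D2:**
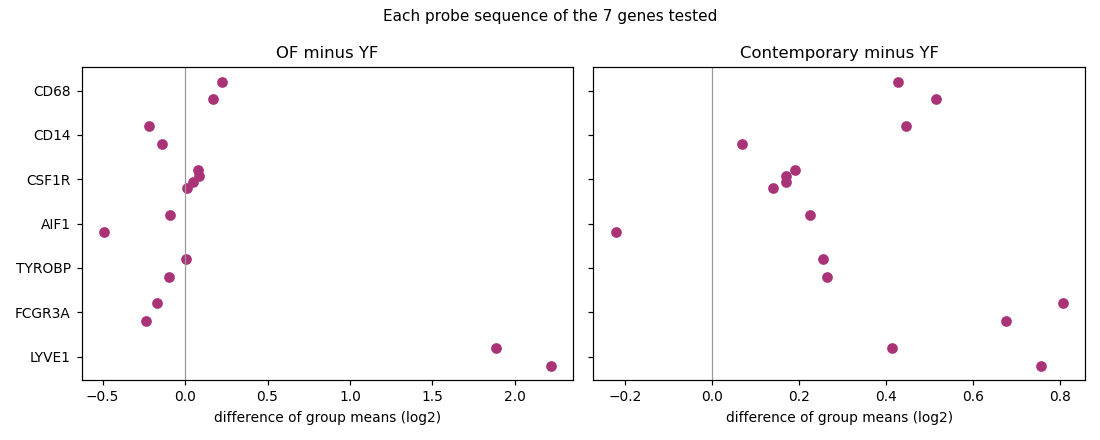
Difference of group means on the log2 scale (horizontal axes) for each probe sequence of the 7 genes tested, OF minus YF on the left and Contemporary minus YF on the right. The LYVE1 probes stand at 1.88 and 2.22 on the left, and the AIF1 probes at 0.22 and -0.22 on the right.

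LYVE1 had the largest difference of the 7 genes, and it came from a pair of old females. Its level was -3.87, -5.83, -4.95 and -4.79 in YF 1069, 1070, 1072 and 1127. In OF 0233, 0234, 0245 and 2258 it was -4.54, -2.26, -4.63 and 0.20. OF 2258 and OF 0234 were above all other cows, while OF 0233 and OF 0245 lay inside the YF range. The OF mean was -2.81 ± 2.29 (SD, n = 4) and the YF mean -4.86 ± 0.80 (SD, n = 4), a difference of 2.05 with a 95% confidence interval of -0.31 to 4.41 (limma, unadjusted p = 0.0800, adjusted p = 0.999). The exact two-sided permutation test over the 8 animals gave p = 0.143.

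Both LYVE1 probes showed the same animals. Probe A was at -1.51 in OF 0234 and 0.92 in OF 2258, against -4.61 to -2.63 in the other 10 cows. Probe B was at -3.01 and -0.52 in the same animals, against -7.05 to -4.14, and was not well above background in YF 1070. Within slide 2, which held 3 OF and 2 YF animals, the difference was 2.13, and with the slide as a block over all 8 animals it was 1.64. Without OF 2258 it was 1.05, and without OF 2258 and OF 0234 together, an alternative chosen after the data were seen, it was 0.27.

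The study called genes with FCROS, a rank-based method that orders transcripts by fold change in every pair of an OF and a YF array. A recomputation called transcripts whose f-value, which runs from 0 to 1, lay within 0.025 of either end and whose group means differed by a fold change of 1.5 or more. LYVE1 was the 1 macrophage gene of the 9 that was called, with an f-value of 0.996 and an OF/YF ratio of 9.34. By the same rule 2.88% of all transcripts were called over-expressed in OF and 2.06% under-expressed, and no macrophage gene was among the latter. The LYVE1 ratio was 2.52 without OF 2258, still called, and 1.08 without OF 2258 and OF 0234, not called.

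OF 2258 and OF 0234 also stood apart in smooth muscle genes, and these are given beside LYVE1 for that reason. All 6 smooth muscle markers found (MYH11, DES, CNN1, TAGLN, MYLK and ACTA2) were well above background on all 12 arrays and were higher in OF, by 1.94 to 2.80, with an adjusted p of 0.999 at the lowest. Their summed linear signal, in units of each array's 75th percentile, was 24.0 to 1011 in OF, 22.5 to 64.3 in YF and 27.7 to 46.7 in Contemporary cows. As a mean of centred levels, they were at 4.27 in OF 2258 and 2.69 in OF 0234, against -1.50 to 0.18 in the other 10 cows. The part of smooth muscle in the LYVE1 difference was not tested.

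Lymphatic endothelial markers moved with LYVE1 in part. Of the 6 markers, 3 were well above background on all 12 arrays (FLT4, PDPN and RELN), and MMRN1 on none. The chemokine CCL21, chosen after its values were seen, was well above background in OF 0234, 0245 and 2258, in YF 1072, in Contemporary cow 1068 and in cow 1111. Its level was -1.54 in OF 0234 and 0.49 in OF 2258, against -8.78 to -3.13 in the other 10 cows. PROX1, the transcription factor that sets lymphatic identity, was highest in OF 2258, at -4.37. As a mean of centred levels the 6 markers were highest in the same animals, at 1.32 in OF 2258 and 0.78 in OF 0234, against at most 0.45 in the other 10 cows. That mean takes in MMRN1, PROX1 and CCL21, which were not well above background on all arrays. The 3 markers tested had OF minus YF differences of -0.87 to 0.27, with a median of 0.06. The summed signal of the list was 3.32 to 9.39 in OF, 3.92 to 14.4 in YF and 6.52 to 11.8 in Contemporary cows. PDPN, a membrane glycoprotein, was at its lowest in OF 2258, at 0.82. The part of lymphatic vessels in the LYVE1 difference was not tested.

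As a mean, the other 6 macrophage genes above background did not follow LYVE1. Their mean centred level was 0.03 in OF 2258 and -0.28 in OF 0234, inside the range of -0.30 to 0.54 of the other 10 cows. Single genes parted in OF 2258. CD68 was the highest of the 12 cows there, at -1.60, while FCGR3A, at -4.04, and CD14, at -1.06, were the lowest. CSF1R, AIF1 and TYROBP were inside the range of the other cows. In the leukocyte list PTPRC, CD48, CD53, CORO1A and LCP1, which marks white blood cells of any kind, OF 2258 was lowest of the 12 cows at -0.76.

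**Figure D3:**
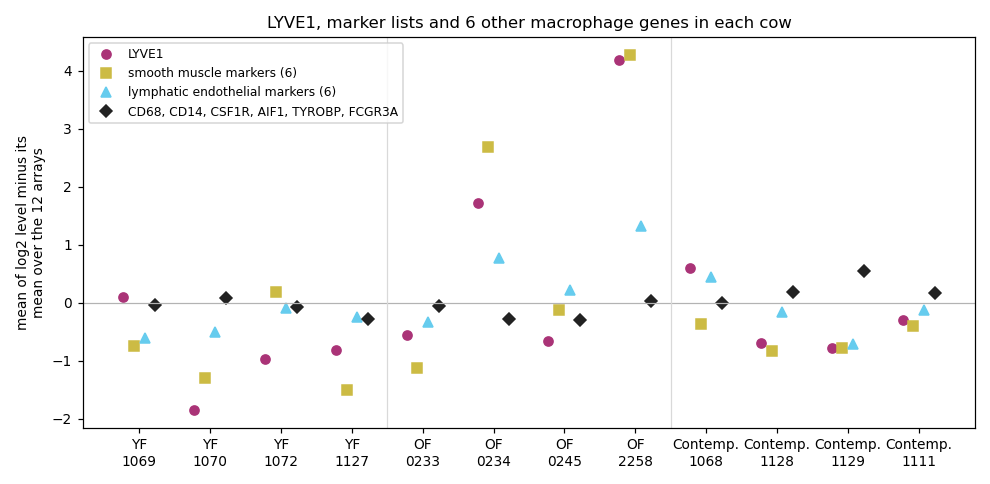
LYVE1, the means of 6 smooth muscle and 6 lymphatic endothelial markers and the mean of the other 6 macrophage genes (vertical axis, log2 level minus its mean over the 12 arrays) in each cow (horizontal axis). LYVE1 and the smooth muscle markers are highest in OF 2258 and OF 0234. The mean of the 6 other macrophage genes stays between -0.30 and 0.54 in every cow.

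The transcripts whose profile was most like that of LYVE1 over the 12 arrays were, among those well above background on all arrays, RASL11B (Pearson r = 0.97), CAP2 (r = 0.97), PDE4DIP (r = 0.97), CORO1C (r = 0.96) and NFIX (r = 0.96). Without OF 2258 and OF 0234 these values fell to 0.82, 0.77, 0.82, 0.85 and 0.78 over 10 arrays. With the mean of the 6 smooth muscle markers, LYVE1 gave r = 0.92 over 12 arrays and 0.33 over the 10 arrays without these animals. With the lymphatic markers it gave r = 0.86 and 0.44, and with the epithelial markers r = -0.82 and -0.56. With the blood endothelial markers the value rose, from r = 0.14 to 0.54. The values for smooth muscle and lymphatic markers thus rested in large part on this pair of cows, and the 12 points share the same labelling and scale. With the mean of the 7 macrophage genes, the most alike were ANG2 (r = 0.94), EDNRA (r = 0.93), EHD2 (r = 0.92), UBR7 (r = 0.92) and TMEM194B (r = 0.91). LYVE1 itself gave r = 0.70 with that mean. With the 6 other genes alone, an alternative chosen after the data were seen, those most alike included APOA1 (r = 0.92), IPO11 (r = 0.91), LTBP2 (r = 0.89) and JAG1 (r = 0.85).

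The macrophage genes were only loosely tied to one another. Across the 12 cows the highest correlations were those of AIF1 with TYROBP (r = 0.70), CSF1R with FCGR3A (r = 0.65) and TYROBP with FCGR3A (r = 0.62). CD68 gave r = 0.27 or less with each of the others except LYVE1 (r = 0.47). LYVE1 gave r = -0.56 with FCGR3A and r = -0.47 with CD14.

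The Contemporary cows were compared with each clone group as well. Both comparisons use the same 3 Contemporary animals, and all of these lay on slide 2. Against YF, 7 of the 7 genes tested were higher in the Contemporary cows and 0 passed an adjusted p of 0.05, as did 0% of the 19993 transcripts tested. Only FCGR3A reached an unadjusted p of 0.05, as did 606 of all transcripts. The median difference of the 7 genes was 0.26, beside -0.02 over all transcripts. The groups did not overlap in 0 of the 7 genes, against 3.83% of all transcripts.

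FCGR3A had the largest difference of the 7 genes between Contemporary cows and YF. It was at -3.20, -2.59 and -1.97 in Contemporary cows 1068, 1128 and 1129, against -3.58 to -3.19 in YF. Cows 1128 and 1129 were above all YF animals, and cow 1068 was inside the YF range. The difference was 0.74 (95% confidence interval 0.08 to 1.41, limma unadjusted p = 0.0329, adjusted p = 0.9999), with an exact two-sided permutation p of 0.171, where 3 animals against 4 cannot go below 0.0571. Both probes gave a positive difference, 0.81 and 0.68. Within slide 2 the difference was 0.88, and without cow 1129 it was 0.43.

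CD68 was at -2.56, -2.98 and -2.68 in the Contemporary cows, a difference of 0.47 from YF (95% confidence interval -0.11 to 1.05). CD14 was at -0.31, -0.31 and -0.63, a difference of 0.26 (95% confidence interval -0.20 to 0.71). Its probes parted here, giving 0.07 to 0.45. TYROBP was at -1.10, -1.09 and -0.09. Cow 1129 alone lay above YF, the other Contemporary cows below it, and the difference of 0.26 turned to -0.08 without cow 1129.

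CSF1R was at 0.54, 0.88 and 1.10 (difference 0.18, 95% confidence interval -0.26 to 0.62). AIF1 was at -2.73, -2.03 and -1.77, with a difference of 0.0016 (95% confidence interval -0.56 to 0.56) that was 0.22 by probe A and -0.22 by probe B. LYVE1 was at -3.39, -4.67 and -4.77, a difference of 0.59 (95% confidence interval -0.58 to 1.75) that fell to 0.06 within slide 2. In CSF1R, TYROBP, FCGR3A and AIF1 it was cow 1129 that was highest of all 12 cows.

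Against OF, 6 of the 7 genes were higher in the Contemporary cows, LYVE1 was lower, and 0 of 7 passed an adjusted p of 0.05, as did 0% of the 19914 transcripts tested. CD14 and FCGR3A reached an unadjusted p of 0.05, as did 911 of all transcripts. The median difference of the 7 genes was 0.29, beside -0.04 over all transcripts, and 0.092 without cow 1129. CD14 was the 1 gene of 7 whose groups did not overlap, against 5.79% of all transcripts. Its difference was 0.44 (95% confidence interval 0.04 to 0.83, limma adjusted p = 0.912), with an exact two-sided permutation p of 0.0571, the smallest that 3 animals against 4 allow. Its probes parted, giving 0.66 by probe A and 0.21 by the other probe, and within slide 2 the difference was 0.47. By probe A alone the groups stayed apart, but by the other probe they overlapped. On the latter OF 0245, at -0.90, was above Contemporary cows 1068, 1128 and 1129, at -0.95, -0.96 and -1.07. FCGR3A differed by 0.95 (95% confidence interval 0.10 to 1.79, limma adjusted p = 0.912) and LYVE1 by -1.47 (95% confidence interval -4.18 to 1.25). Without OF 2258 the LYVE1 difference was -0.46.

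**Figure D4:**
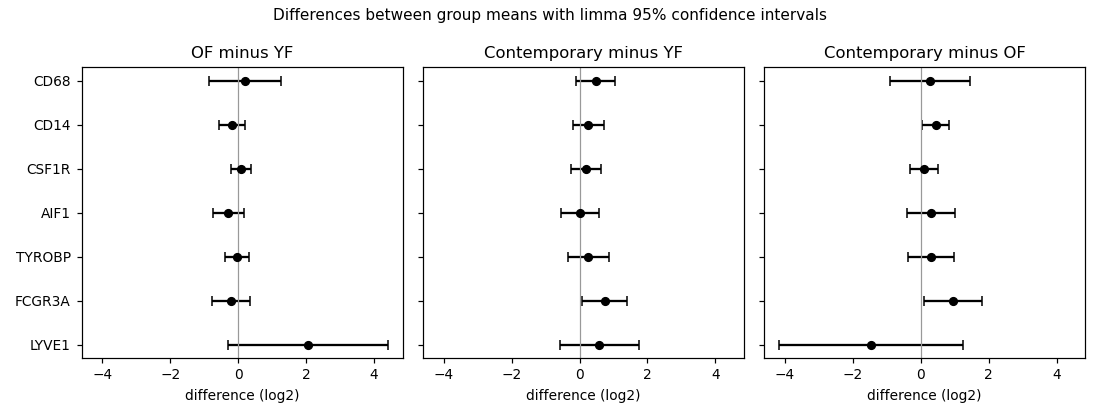
Difference of group means on the log2 scale with limma 95% confidence intervals (horizontal axes) for the 7 macrophage genes tested in the 3 comparisons. The intervals of FCGR3A in both Contemporary comparisons and of CD14 in Contemporary minus OF leave out 0 before adjustment for multiple testing.

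Cow 1111, outside the groups, had CSF1R at 1.05, FCGR3A at -2.63, CD68 at -2.88, CD14 at -0.65, AIF1 at -2.15, TYROBP at -1.005 and LYVE1 at -4.28. CSF1R and FCGR3A of this cow were above all YF animals.

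Beyond the named genes, 11 lists covered the pathways in which they act. Of 89 genes, 86 were found and 74 were tested between OF and YF. Of these 32 were higher and 42 lower in OF, with a median difference of -0.05, and 0 passed an adjusted p of 0.05. An unadjusted p of 0.05 was reached by 2 of the 74, both alternative activation genes, and by 2.42% of all transcripts tested. In each list the gene with the highest and the gene with the lowest OF minus YF difference are named here, with the difference on the log2 scale.

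The growth factors and their receptors moved little. In 4 genes tested the differences ran from -0.25 for CSF2RA, a chain of the GM-CSF receptor, to 0.21 for CSF1, the ligand of CSF1R. The transcription factors of the lineage ran from -0.18 for MAF to 0.09 for SPI1, the master regulator of myeloid cells, in 3 genes tested. Among the 9 ITAM partners and kinases, VAV1 was at -0.76 and TREM1, a receptor that couples to TYROBP, at 0.30. Without OF 2258 CSF2RA was at 0.061, CSF1 at 0.059, MAF at -0.066, SPI1 at 0.20 and VAV1 at -0.11.

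Of the other Fc receptors, 3 of 3 tested were lower in OF, from -0.30 for FCGRT, which recycles IgG, to -0.04 for FCGR1A, the high-affinity receptor. Of the genes that act with CD14, 5 of 7 were lower in OF. LY96, the MD-2 partner of TLR4, was at -0.47 (limma unadjusted p = 0.0682) and the adaptor TICAM2 at 0.20. The 3 chains of C1q, which tissue macrophages make, were lower in OF by 0.13 for C1QB to 0.31 for C1QA. Without OF 2258 FCGR1A was at 0.092, LY96 at -0.28, TICAM2 at 0.035, C1QA at -0.14 and C1QB at -0.0014. None of these genes passed the test.

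Of the endocytic and tissue resident genes, 9 of 15 were lower in OF, with a median of -0.19. They ran from -0.93 for SIGLEC1, a sialic acid receptor of resident macrophages, to 0.27 for STAB1, a scavenger receptor. SIGLEC1 was at -5.16 in OF 2258 and -4.43 in OF 0234, the lowest values of OF, and its difference was -0.58 without OF 2258. That of STAB1 was then 0.028. Phagocyte integrins, oxidase and lysosomal genes were mixed, 7 of 12 being higher in OF, from -0.44 for CTSS, a lysosomal protease, to 0.41 for NCF1, an oxidase subunit. CTSS was at -0.15 without OF 2258.

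The monocyte chemokines ran from -0.43 for CX3CL1 to 0.90 for CCL2, the main attractant of monocytes. CCL2 was at 2.37 in OF 2258 and between -0.52 and 0.64 in the other 11 cows, and its difference was 0.30 without OF 2258. Inflammatory genes ran from -0.82 for IL1A to 1.28 for CXCL8, a neutrophil attractant, and were then at -1.26 and 0.23 without OF 2258. Genes of alternative activation ran from -0.75 for CCL17, a chemokine, to 1.15 for CHI3L1, a chitinase-like protein, which was at 0.47 without OF 2258. By FCROS 5 of the 86 genes found were called, CHI3L1 and IL4R over-expressed in OF and SIGLEC1, CLEC10A and CCL17 under-expressed, a share near that of all transcripts (2.88% over-expressed and 2.06% under-expressed).

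In the Contemporary cows most resident genes stood higher, as did markers of several other cells given further on, though none passed the test. Of 15 resident genes tested, 13 were higher than in YF (median 0.28) and 13 higher than in OF (median 0.34). Of all transcripts tested 45.4% were higher than in YF and 43.6% than in OF. Other macrophage lists were also mostly higher. Phagocyte integrin, oxidase and lysosomal genes were so in 11 of 12 in both comparisons (medians 0.27 and 0.23), and other Fc receptors in 3 of 3. Alternative activation genes were mixed, 4 of 7 being higher than in YF and 3 of 6 than in OF. The cows were uneven. As a mean of centred levels the resident list was at 0.55 in cow 1128, -0.02 in cow 1068 and 0.03 in cow 1129. The latter pair lay inside the YF range of -0.22 to 0.26, though above the OF range of -0.20 to -0.11. VSIG4, a complement receptor of resident macrophages, chosen after its values were seen, was at -3.02, -3.01 and -3.05 in the Contemporary cows against -3.70 to -3.39 in YF and -3.93 to -3.62 in OF. Its groups did not overlap in either comparison, as was so for 3.83% of all transcripts tested against YF and 5.79% against OF. The same 3 Contemporary cows stand in both comparisons. The VSIG4 differences were 0.51 from YF and 0.76 from OF (limma adjusted p = 0.9999 and 0.632). The C1q chains were higher by 0.34 to 0.43 than in YF and by 0.54 to 0.65 than in OF. As a mean of centred levels they were at 0.98 in cow 1128 and 0.40 in cow 1129. Cow 1068, at -0.46, lay inside the ranges of YF (-0.50 to 0.19) and OF (-0.80 to 0.13).

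**Figure D5:**
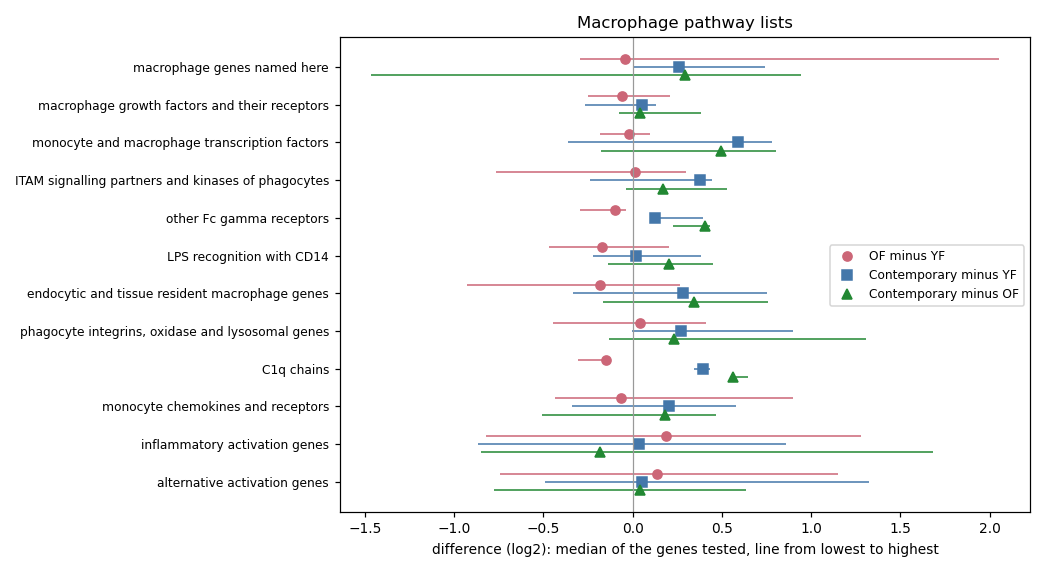
Median difference on the log2 scale (horizontal axis) of the genes tested in the named macrophage genes and the 11 pathway lists, with lines from the lowest to the highest gene, for the 3 comparisons. The Contemporary medians of the resident genes are 0.28 and 0.34 and the OF minus YF median is -0.19.

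Markers of other cells that the biopsies could hold are given as median OF minus YF differences of the genes tested. They were -0.03 for the leukocyte list, 0.06 for lymphatic endothelium, 0.20 for blood endothelium, 0.40 for neutrophils, 0.14 for dendritic cells, -0.06 for T and NK cells and 0.23 for B and plasma cells. They were 2.22 for smooth muscle, -0.19 for epithelium, -0.21 for stroma and 0.01 for red blood cells. The epithelial markers were lowest in OF 2258, at -2.10 as a mean of centred levels. Between Contemporary cows and YF the medians were 0.28 for the leukocyte list, 0.23 for lymphatic endothelium, 0.49 for blood endothelium, 0.48 for neutrophils, 0.50 for dendritic cells, 0.04 for T and NK cells and 0.13 for B and plasma cells. They were 0.12 for smooth muscle, 0.07 for epithelium, 0.21 for stroma and 0.53 for red blood cells. Blood endothelium (6 of 6 genes), neutrophil markers (8 of 8) and dendritic cell markers (3 of 3) were higher throughout, and their part in the Contemporary differences of the macrophage genes was not tested. No gene of these lists passed an adjusted p of 0.05 in any of the 3 comparisons.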

How the data were processed

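RNA of 12 biopsies was labelled with Cy3 and hybridised to custom Agilent arrays. The deposited files hold, per the file headers, the intensity of each spot from Agilent Feature Extraction 10.7.3.1, background-subtracted and not normalized between arrays by the authors, with flags for spots well above background. The members and gene lists were chosen with earlier results of these data known.

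The processed signal was taken as log2 and the 75th percentile of each array was subtracted. Of 61399 probes, 66 with an outlier flag were left out. Probes were averaged per transcript (26323, of which 22189 had a symbol), and a gene with several transcripts took the one with the highest mean. Those read above background throughout at least 1 of the groups compared, by any probe, were tested with limma 3.58.1 (R 4.3.3), Benjamini-Hochberg threshold 0.05. FCROS was recoded (16 pairwise ratios, trimming 0.25 at each end, fold 1.5, f-values within 0.025 of either end). Single levels were compared by exact two-sided permutation over animals (scipy 1.17.1). The number of arrays limits the precision. The code was tested on simulated data with 200 transcripts changed. Named were the 10 members, in each other list the genes called or else the highest and lowest in OF minus YF, and the 5 transcripts most alike in profile.

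Alternatives were quantile normalization, normexp (offset 50), median centring, the brightest probe, all transcripts of a gene, no filter, a block for the slide, a joint fit of the 3 groups, weighted arrays, leaving out each animal and adding cow 1111. A probe sequence and a gene among the most alike are not reported here.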

Additional observations from a re-analysis of the deposited data

Results flagged for a closer look

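AIF1 of OF 0245, at -3.03, lay far below the other OF animals, its gap to the nearest of them taking up more of the group's range than Dixon's 95% critical value for 4 animals allows. It was the only such value in 18 tests of a gene in OF or YF, where chance gives about 1 in 20. The low value came mostly from probe B. Probe A was also lowest in this cow, at -0.22, but close to YF 1127 at -0.21. In cow 1111, which no comparison used, CSF1R at 1.05 and FCGR3A at -2.63 were above background and above all YF animals.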

How the results depend on the processing

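No alternative gave a macrophage gene an adjusted p of 0.05 by limma, the lowest being 0.157, and in no alternative did LYVE1 turn direction between OF and YF (1.38 to 2.57, and 1.05 to 2.66 when each animal was left out, against 2.05; 0.27 without OF 0234 and 2258). Small differences did turn. Between OF and YF, TYROBP was 0.0039 by its brightest probe, 0.10 within slide 2 and -0.11 to 0.071 with each animal left out, and CD68 was -0.51 with array weights and -0.27 to 0.47 with each animal left out. Without OF 0234 and 2258, chosen after the data were seen, CD68 was -0.10 and FCGR3A 0.10 between OF and YF, LYVE1 was 0.31 in Contemporary minus OF, and FCROS called 0 macrophage genes in place of 1. In Contemporary minus YF, AIF1 was -0.077 with the slide as a block and within slide 2, and -0.20 to 0.28 with each animal left out. TYROBP ran from -0.076 to 0.43 there and, in Contemporary minus OF, TYROBP from -0.030 to 0.47 and CSF1R from -0.029 to 0.25, each lowest without Contemporary cow 1129. The median of the 7 genes in Contemporary minus YF was 0.41 by the brightest probe and 0.24 to 0.42 with each animal left out. With each animal left out that of Contemporary minus OF ran from 0.092 (without cow 1129) to 0.38 and that of OF minus YF from -0.11 to 0.056 (without OF 0245).

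Over all transcripts, OF minus YF gave 0 calls by limma in every alternative run. Contemporary minus YF gave 1 with quantile normalization, 2 with all 3 groups in 1 fit, 1 with array weights, 4 with cow 1111 and 0 to 1 with each animal left out. Contemporary minus OF gave 26 with array weights, 2 with cow 1111 and 0 to 1 with each animal left out. FCROS gave 565 calls at a fold of 2, against 1300. The cause of these changes was not tested. No paired analysis was possible because the labels give the animals of different groups no shared number. Signal over background limits CD163 and MARCO, for which no fold is given.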
